A study of Oryza sativa Japonica Group with 238 samples.

Results

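The genes described here are the cyclins, cyclin-dependent kinases (CDKs) and kinesins of rice (Oryza sativa cv. Nipponbare) roots. They were chosen by the wording of the gene descriptions in the deposited expression data, which had to contain "cyclin" or "kinesin" and not an F-box or tetracycline term, and no expression value was used. The rule found 101 of 28248 genes: 40 kinesins, 7 D-type, 4 A-type, 8 B-type and 2 P-type cyclins, 7 cyclins described as T, H, L-like or transcription-regulator cyclins, 10 cyclins of no stated type, 6 proteins with a domain named cyclin-related 2, 10 CDKs, 3 CDK inhibitors, 1 CDK regulatory subunit and the proliferating cell nuclear antigen PCNA. The remaining 2 are ribosome recycling factors, which the rule took because "recycling" contains "cyclin". They have no known part in the cell cycle.

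Cyclins bind and activate CDKs, and successive cyclin and CDK pairs drive a cell from growth through DNA replication into division. D-type cyclins act at entry into the cycle and A-type and B-type cyclins act later, the B-type with the plant-specific B-type CDKs at mitosis. T-type cyclins, by contrast, belong to kinases of transcription. Kinesins are motors on microtubules, and many plant kinesins build the spindle or the phragmoplast that lays down the new cell wall. In a root most division takes place in the meristem behind the tip, around a slowly dividing quiescent centre.

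RNA was measured in 187 libraries of 62 groups. In these libraries every plant carried a ribosomal protein, OsRPL18, with a His-FLAG and GFP tag, driven by the promoter that names the line, so the 35S line is a tagged line as well. TRAP RNA (157 libraries) is the poly(A) RNA on polysomes pulled through the FLAG tag, and TOTAL RNA (30 libraries) is the poly(A) RNA of whole roots of the 35S line. The 35S promoter is a viral promoter active in most cells. The other lines carried the promoters CASP, CMZ, EXP5B, HMA5, LSI1, NRAMP5, QHB, RSS1, SHR1 and AtSCR, the last an Arabidopsis promoter, whose line is called SCR below. Greenhouse roots were 26 days old in control I, control II, water deficit, waterlogging and submergence, and 27 days old in the recovery from each stress. Field roots were 49 days old and roots from agar plates 7 days old. A greenhouse replicate was 1 pot of pooled plants. There were 3 replicates in each group, and 4 of CMZ on plates. Levels are TPM, a share of transcripts per length that the authors computed from quantile-normalized reads. They are printed as mean ± SD with n = 3 where no n is given, and they carry no sequencing depth. No nucleotide or protein sequence of these genes was used here.

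A gene was tested with limma on log2(TPM + 1), and it was called higher or lower when its adjusted p over all genes tested was under 0.05 and its log2 difference was at least 1 in size. Fold changes on this scale understate those of low genes. The percent in parentheses after a count of members is the share of all genes tested that was called in the same comparison, in the same direction or, where 0 or 1 member was called, in either direction, and it serves as the background.

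The genes of the driving promoters were checked first. QHB (OS01G0854500) stood at 174 ± 57.8 TPM in QHB and 0.257 in 35S TRAP RNA of control I, RSS1 (OS02G0606700) at 467 ± 194 in the RSS1 line and 6.68 in 35S, and LSI1 (OS02G0745100) at 2474 ± 108 in the LSI1 line and 353 in 35S. In the field the NRAMP5 gene stood at 31.0 ± 15.7 TPM in the NRAMP5 line and 25.4 in 35S, and the HMA5 gene at 29.6 ± 21.1 in the HMA5 line and 27.0 in 35S, so those lines were not marked by their own gene. The SHR1 gene stood at 18.2 ± 11.6 TPM in the SHR1 line in the field and 3.93 in 35S, but at 15.0 in EXP5B, 14.9 in QHB, 13.7 in HMA5 and 106 ± 30.4 in LSI1. On plates it stood at 10.9 ± 9.35 TPM in its own line, below the 35.3 of QHB, 14.9 of RSS1, 14.2 of SCR and 13.4 of CMZ, and at 3.43 in 35S. The SHR1 line was thus not marked by its own gene either. No check gene was available for CASP, CMZ, EXP5B and SCR. The TPM of RPL18 (OS03G0341100), which includes the tagged transcript, averaged 52523 in 35S TRAP and 17100 in RSS1 TRAP of control I, but 1350 in CMZ, 1101 in SCR and 1041 in CASP, near the 920 of TOTAL RNA. The control I libraries gave 16040, 27930 and 113600 TPM in 35S TRAP and 12870, 117600 and 12910 in LSI1. A mean of RPL18 can thus rest on 1 library.

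The members covered a wide range of levels. Their mean TPM over all libraries ran from 0.459 for a C-type CDK (OS11G0242500) to 68.8 for a kinesin heavy chain (OS05G0154700), with a median of 11.7. A total of 35 members were at or above 1 TPM in every library, and 5 reached it in under 50% of the libraries. After OS05G0154700 the most abundant kinesins were OS02G0775400 at 52.1 TPM, the kinesin-4 OS09G0114500 at 50.8, OS04G0538800 at 32.2 and OS03G0301800 at 31.5. PCNA (OS02G0805200), the sliding clamp of DNA replication, averaged 50.3 TPM, and the CDK regulatory subunit OS03G0146300 averaged 50.6. The cyclins with the highest means over all libraries were the D-type OS03G0203800 at 41.1 TPM and the transcription-regulator cyclin OS09G0504400 at 36.4, but in TOTAL RNA of control I OS03G0203800 stood at 14.8 ± 2.63 TPM and OS09G0504400 at 30.2 ± 3.27. B-type cyclins were led by OS01G0805600, similar to cyclin B1-1, at 21.3 TPM, and by OS05G0493500 at 19.6, while the highest A-type cyclin, OS12G0502300, averaged 5.49.

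The groups with the highest and lowest means were unevenly spread over environments. Of the 101 members, 54 had their highest group mean in a plate group (53.5%, against 28.5% of all genes), 23 of them in plate-grown QHB and 13 in plate-grown SHR1. The lowest group mean fell in a submergence group for 43 members (42.6%, against 14.1% of all genes), of which 23 were lowest in submerged 35S TRAP RNA and 17 in submerged TOTAL RNA. These are ranks of means over 62 groups, with no test.

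The first comparison asks in which promoter lines the members' transcripts were on tagged ribosomes. In control I the members stood higher in most lines than in 35S TRAP RNA. Of 100 members tested, QHB had 59 higher (15.1%) and 0 lower (9.93%), CASP 57 (18.3%) and 1 (10.1%), SCR 57 (18.8%) and 1 (10.7%), CMZ 55 (17%) and 1 (9.95%), and RSS1 42 (10.1%) and 0 (4.73%). Their median log2 difference from 35S was 1.45 in QHB, 1.43 in CASP, 1.37 in SCR, 1.27 in CMZ and 0.91 in RSS1, against 0.04 to 0.19 over all genes in those lines. LSI1 differed, with 13 higher (7.68%) and 5 lower (10.2%) of 100 and a median of 0.22, against 0.28 over all genes. Its count of 18 fell to 7 without 35S replicate 3, to 9 without 35S replicate 2, to 10 without LSI1 replicate 2 and to 11 without LSI1 replicate 1 or 3. The moderated F test over the 7 lines called 81 of 100 members (53.5%). All these comparisons share the 3 libraries of 35S. In bulk samples, fewer cells of a type and less RNA per cell cannot be told apart.

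**Figure D1:**
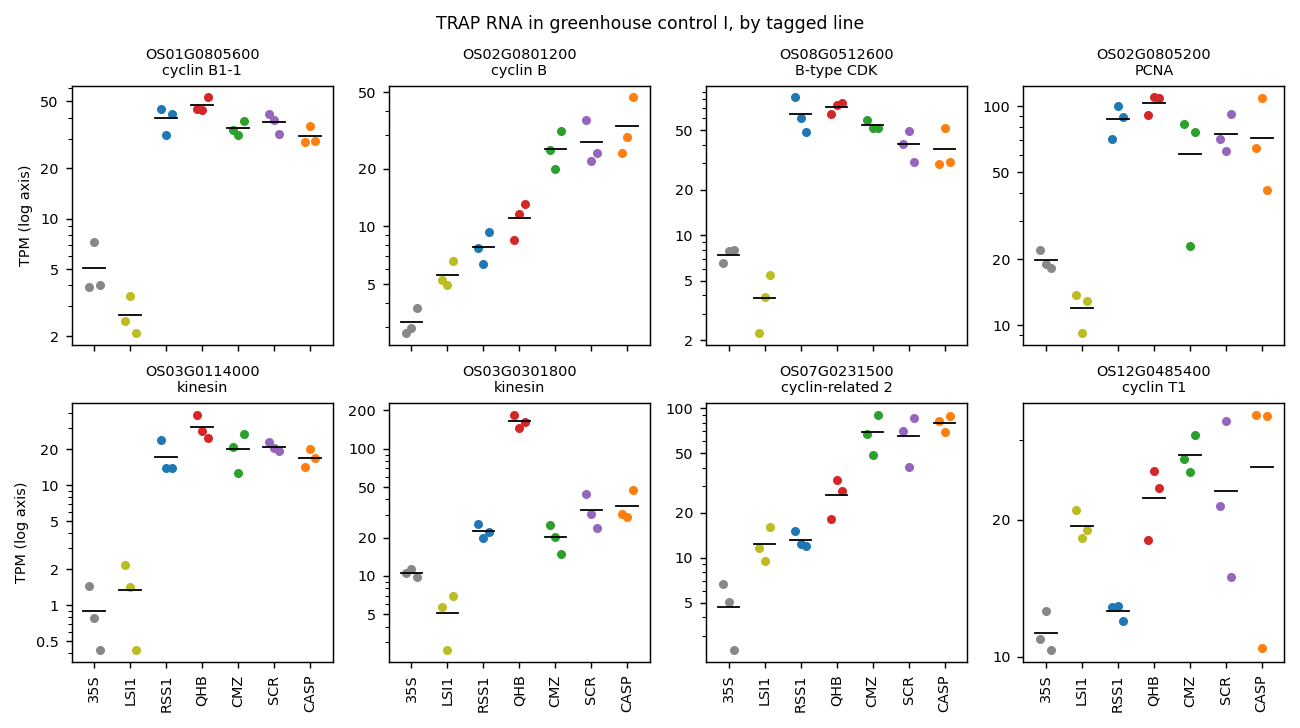
TPM (log scale) of selected cyclins, CDKs and kinesins in TRAP RNA of the 7 lines in control I, with 1 point per library and a bar at the mean. The B1-1-like cyclin OS01G0805600 lies between 28.6 and 52.8 TPM in RSS1, QHB, CMZ, SCR and CASP and between 2.09 and 7.26 in 35S and LSI1.

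By role, the A-type and B-type cyclins were among the most widely raised: 7 of 8 B-type cyclins were higher in CMZ, SCR and CASP, 6 in QHB and 4 in RSS1, and 3 or 4 of the 4 A-type cyclins were higher in each of those lines. Of the 40 kinesins, 28 were higher in CASP, 27 in QHB, 25 in SCR, 22 in CMZ and 18 in RSS1, with none lower. D-type cyclins were higher for 5 of 7 in QHB and 3 of 7 in the other 4. The 7 T, H, L-like and transcription-regulator cyclins gave 0 calls in QHB and RSS1, 1 in SCR and in CASP, and 2 in CMZ. Among 63 other genes of DNA replication and mitosis, taken by description, QHB had 32 higher, RSS1 27, CMZ and SCR 23 each, CASP 20 and LSI1 1.

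OS01G0805600, the B1-1-like mitotic cyclin, gave 3.91, 7.26 and 4.04 TPM in the 35S libraries, 45.2, 31.6 and 42.1 in RSS1, 44.9, 44.5 and 52.8 in QHB, 34.0, 31.6 and 38.3 in CMZ, and 2.46, 3.47 and 2.09 in LSI1. The RSS1, QHB and CMZ libraries were all above the 35S libraries, and the LSI1 libraries were all below them. Its log2 difference from 35S was 3.03 ± 0.27 (SE, limma adjusted p = 3.83e-08) in QHB and 2.77 ± 0.27 (adjusted p = 2.44e-07) in RSS1, whereas in LSI1 it was -0.70 ± 0.27 (adjusted p = 0.0752). OS08G0512600, a plant-specific B-type CDK, followed the same order. It stood at 6.56, 7.82 and 7.93 TPM in 35S, 82.3, 60.5 and 48.4 in RSS1, 64.1, 73.9 and 75.6 in QHB, 58.2, 51.8 and 51.8 in CMZ and 2.25, 3.87 and 5.43 in LSI1. No library of RSS1, QHB or CMZ came near the 35S range.

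PCNA (OS02G0805200) stood at 19.8 ± 2.11 TPM in 35S, 86.9 ± 15.0 in RSS1 and 103 ± 10.4 in QHB, and its log2 difference from 35S was 2.07 ± 0.38 in RSS1 (adjusted p = 0.000514) and 2.32 ± 0.38 in QHB (adjusted p = 8.4e-05). In CMZ its libraries spread from 23.1 to 82.5 TPM. The A-type cyclin OS12G0502300 stood at 1.18 ± 0.509 TPM in 35S, 8.14 ± 1.37 in RSS1, 12.0 ± 2.18 in QHB and 11.0 ± 2.61 in CMZ, while its SCR libraries ran from 2.65 to 19.8. Both genes were thus higher in these lines, with less even replicates in CMZ or SCR.

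A second set of members stood highest in CMZ, SCR or CASP, and their means in RSS1 lay between that of 35S and the highest of these lines. The cyclin-related 2 domain gene OS07G0231500 gave 6.63, 5.06 and 2.41 TPM in 35S, 15.1, 12.3 and 11.9 in RSS1, 18.2, 33.1 and 27.9 in QHB, 67.6, 49.0 and 90.7 in CMZ and 81.9, 69.4 and 88.5 in CASP. The CMZ and CASP libraries were all above the QHB libraries, which were all above 35S. Its log2 difference from 35S was 3.90 ± 0.35 in CASP (adjusted p = 5.39e-08) and 1.38 ± 0.35 in RSS1 (adjusted p = 0.00769). The B-type cyclin OS02G0801200 stood at 3.17 ± 0.518 TPM in 35S, 7.82 ± 1.49 in RSS1, 25.4 ± 5.84 in CMZ, 27.4 ± 7.60 in SCR and 33.5 ± 12.0 in CASP. It lies near OS02G0800500 and OS02G0801300 by identifier, and no source used here states how reads that fit several of these similar cyclins were counted. The D-type cyclin OS03G0203800 stood at 12.7 ± 2.32 TPM in 35S, 29.7 ± 11.3 in RSS1 and 87.5 ± 17.9 in SCR, a log2 difference of 2.69 ± 0.34 in SCR (adjusted p = 4.86e-06). OS04G0442800, similar to a phragmoplast-associated kinesin, stood at 8.61 ± 1.61 TPM in 35S and 34.2 ± 3.74 in SCR (log2 1.88 ± 0.28, adjusted p = 4.08e-05), and at 12.3 ± 0.957 in RSS1 (log2 0.48 ± 0.28, adjusted p = 0.3). CMZ, SCR and CASP are also the lines whose RPL18 level was near that of TOTAL RNA, and 1 library each of CMZ, SCR and CASP held photosynthesis transcripts at a summed 1445, 895 and 3919 TPM over 46 genes, against 130 to 209 in 35S. The part of either in these differences was not tested.

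Of the 40 kinesins, 21 had their highest control I line mean in QHB and 12 in CASP, as a rank of means with no test. The same rank was not taken over all genes, so whether these shares are particular to kinesins is not known. OS03G0301800, similar to a kinesin-like polypeptide 9, gave 10.6, 11.4 and 9.76 TPM in 35S, 25.4, 19.8 and 22 in RSS1 and 186, 144 and 163 in QHB. Every QHB library was above every control I library of the other lines, the highest of which was 47.5 TPM in CASP. Its log2 difference from 35S was 3.83 ± 0.31 in QHB (adjusted p = 1.24e-08). OS01G0744000, a kinesin heavy chain, stood at 4.77 ± 0.771 TPM in 35S and 74.0 ± 19.2 in QHB (log2 3.67 ± 0.35, adjusted p = 1.21e-07), with 17.8 to 25.0 as the means of RSS1, CMZ, SCR and CASP. The most abundant kinesin, OS05G0154700, was at 58.5 ± 3.78 TPM in 35S and 116 ± 19.9 in QHB, a log2 difference of 0.96 ± 0.23 (adjusted p = 0.00337) that was short of the fold limit.

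LSI1 stood apart in the direction of several members. The P-type cyclin OS05G0398000, similar to cyclin P3-1, gave 2.27, 2.48 and 2.65 TPM in 35S and 22.7, 14.3 and 12.2 in LSI1, a log2 difference of 2.28 ± 0.47 (adjusted p = 0.00126). The CDK inhibitor OS03G0137800 gave 20.6, 13.5 and 6.04 TPM in 35S and 2.62, 3.31 and 2.50 in LSI1, a log2 difference of -1.78 ± 0.46 (adjusted p = 0.00806) that was no longer called without 35S replicate 1. Neither gene's groups overlapped. The transcription-regulator cyclin OS09G0504400, by contrast, averaged between 26.5 and 41.4 TPM in all 7 lines of control I and was called in none of the 6 comparisons with 35S (adjusted p from 0.215 to 0.881).

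On plates the same comparison gave more calls. Of 100 members tested, CMZ had 76 higher (26.7%) and 1 lower (16.4%), SCR 74 (26.1%) and 1 (16.6%), QHB 71 (21.3%) and 1 (15.8%), SHR1 70 (25.9%) and 4 (16.3%), and RSS1 45 (10.6%) and 1 (6.32%), and the F test called 84 (61.9%). The ribosome recycling factor OS07G0570700 was the gene called lower in CMZ, SCR, QHB and RSS1 and 1 of the 4 in SHR1, at 40.7 ± 13.6 TPM in 35S and 7.44 ± 2.32 in CMZ (n = 4), and its RSS1 call was lost without 35S replicate 1. The 3 plate-grown 35S TRAP libraries held 6564 to 22077 TPM of photosynthesis transcripts and 121000 to 122900 TPM of RPL18. Photosynthesis transcripts summed to 204 to 1051 TPM in plate-grown QHB, CMZ, SCR and SHR1, and RPL18 averaged 7751 TPM in QHB and 2675 in CMZ. Their part in the differences was not tested.

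OS03G0301800 stood at 194 ± 19.0 TPM in plate-grown QHB and 8.45 ± 0.451 in 35S (log2 4.37 ± 0.19, adjusted p = 4.44e-13), close in level to QHB of control I. The kinesin heavy chain OS01G0105400 was at 118 ± 21.6 TPM in CMZ (n = 4), 108 ± 8.00 in SHR1 and 5.22 ± 1.05 in 35S, and these were log2 differences of 4.25 ± 0.19 (adjusted p = 2.79e-13) and 4.15 ± 0.20 (adjusted p = 1.44e-12). OS08G0558400, another kinesin heavy chain, stood at 103 ± 26.5 TPM in CMZ, 55.6 ± 6.39 in RSS1 and 7.21 ± 3.29 in 35S. No group of these 3 genes overlapped with 35S.

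In the field fewer members differed. Of 101 tested, QHB had 30 higher (6.87%) and 0 lower (2.45%), EXP5B 29 (9.79%) and 0 (3.72%), SHR1 23 (8.12%) and 0 (3.97%), RSS1 19 (6.19%) and 0 (1.54%), HMA5 16 (6.86%) and 0 (2.42%), LSI1 4 (7.23%) and 19 (9.12%), and NRAMP5 0 (3.86%). The F test called 52 (36.7%). For NRAMP5 limma gave 14 members at an unadjusted p under 0.05, and 1 call with the replicate number as a block. Same-numbered NRAMP5 and 35S field libraries deviated together, with correlations of deviations between 0.192 and 0.321. The part of this in that call was not tested. NRAMP5 replicate 1 held 1768 TPM of photosynthesis transcripts, against 140 and 132 in replicates 2 and 3. RPL18 averaged 4080 TPM in 35S, 5106 in RSS1, 43717 in LSI1, where 1 library gave 119200, and 1333 to 2515 in the other lines. Their part in the field counts was not tested. Most of the field counts rest on single libraries. Without 35S replicate 2 the count fell to 10 in EXP5B, 13 in SHR1 and 3 in RSS1, and without 35S replicate 1 to 16, 12 and 6. Without 35S replicate 3 it was 19 in EXP5B and 12 in RSS1. It also fell to 11 without EXP5B replicate 1, to 9 without RSS1 replicate 1, to 4 without RSS1 replicate 2, to 19 without QHB replicate 2 or 3 and to 14 in LSI1 without LSI1 replicate 3.

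OS03G0301800 and OS01G0744000 were again the kinesins furthest above 35S in QHB, at 95.2 ± 40.1 against 7.32 ± 2.40 TPM (log2 3.47 ± 0.43, adjusted p = 8.33e-06) and 63.5 ± 24.4 against 6.93 ± 2.24 TPM (log2 2.99 ± 0.40, adjusted p = 1.83e-05). LSI1 in the field showed the P-type cyclin OS05G0398000 at 18.7 ± 11.1 TPM against 1.08 ± 0.738 (log2 3.15 ± 0.52, adjusted p = 0.000127). Its lower members included the D-type cyclin OS07G0556000, at 2.63 ± 1.01 against 17.3 ± 1.85 TPM (log2 -2.37 ± 0.37, adjusted p = 6.66e-05), and OS01G0805600, at 1.15 ± 0.903 against 6.87 ± 2.07 TPM (log2 -1.92 ± 0.44, adjusted p = 0.00314). In the field LSI1 was thus the line in which lower members outnumbered higher ones.

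Submergence gave the largest change of the stresses. Against control II, TOTAL RNA had 57 members lower (19.5%) and 7 higher (16.4%) of 98 tested, RSS1 TRAP 49 lower (18.9%) and 17 higher (19.4%) of 100, and 35S TRAP 23 lower (10.1%) and 2 higher (9.98%) of 94. The median log2 change of the members was -1.29 in TOTAL, -0.99 in RSS1 and -0.28 in 35S, against 0.02, 0.11 and 0.08 over all genes. TOTAL and RSS1 had 47 lower members in common, which is 82.5% of the TOTAL list and 95.9% of the RSS1 list, and 17 members were lower in all 3 sets (17% of those tested). Over all genes the shared list was 78.3% of the TOTAL list and 78.1% of the RSS1 list, and 6.28% were lower in all 3 sets. Of the 63 other replication and mitosis genes, 34 were lower and 2 higher of 61 tested in TOTAL, 32 and 4 of 62 in RSS1, and 11 and 1 of 60 in 35S. That control II is the control of submergence is an inference from where its libraries occur.

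**Figure D2:**
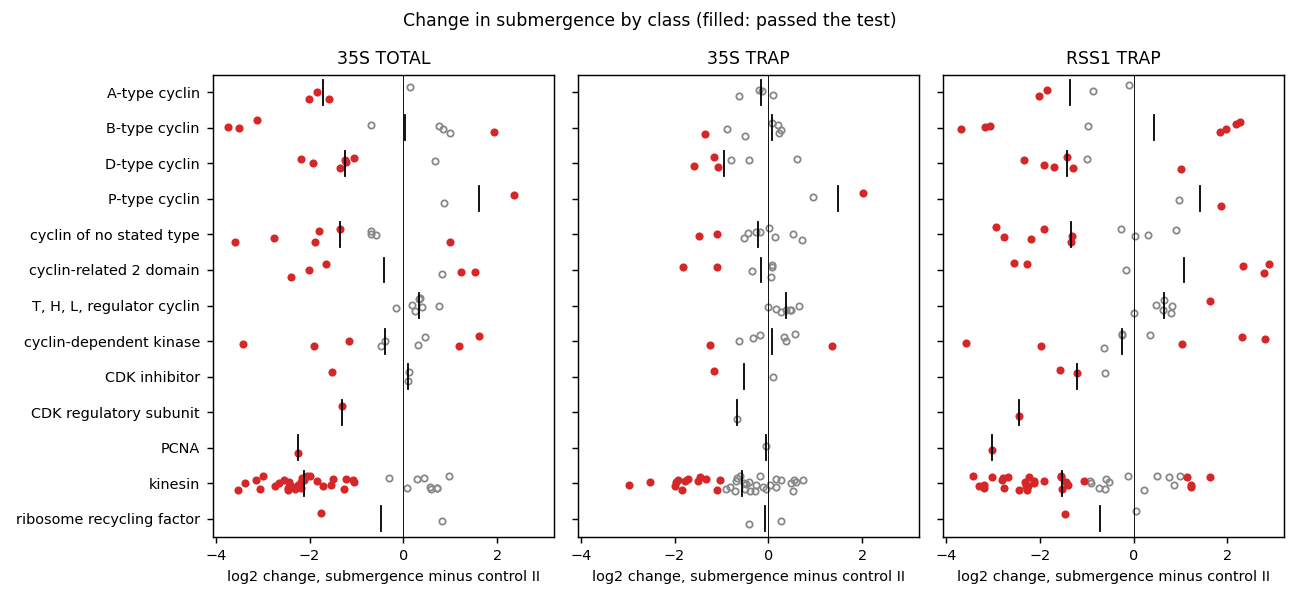
Log2 change of each tested member under submergence against control II, by role and RNA set, on the log2(TPM + 1) scale, with 1 point per gene (filled and red where called) and a black bar at the median. Kinesins lie mostly below 0 in TOTAL RNA, with a median of -2.11, and the T, H, L-like and transcription-regulator cyclins lie near 0, with a median of 0.32.

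By role, 30 of the 39 kinesins tested were lower in TOTAL with 0 higher, 24 of 40 in RSS1 with 4 higher, and 13 of 38 in 35S with 0 higher. D-type cyclins were lower for 6 of 7 in TOTAL, 5 of 7 in RSS1 and 3 of 6 in 35S. A-type cyclins were lower for 3 of 4, 2 of 4 and 0 of 4. The B-type cyclins divided: 3 of 8 were lower and 1 higher in TOTAL, and 3 were lower and 4 higher in RSS1. The 7 T, H, L-like and transcription-regulator cyclins gave 0 calls in TOTAL and 35S and 1 higher in RSS1.

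OS01G0805600 gave 33.7, 27.6 and 29.9 TPM in TOTAL RNA of control II, 0.910, 0.739 and 2.88 under submergence and 7.71, 9.40 and 14.0 after recovery. In RSS1 it gave 24.9, 32.5 and 28.0, then 2.31, 1.87 and 2.64, then 27.3, 18.4 and 15.8. The 3 stages did not overlap in TOTAL, while the RSS1 recovery range reached into that of control II. The log2 change under submergence was -3.74 ± 0.26 in TOTAL (adjusted p = 1.2e-11) and -3.17 ± 0.23 in RSS1 (adjusted p = 3.66e-11). In 35S TRAP RNA, which held only 3.84 ± 0.0845 TPM in control II, the change was -1.34 ± 0.36 (adjusted p = 0.00508).

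OS08G0512600, the B-type CDK, fell from 42.7 ± 2.56 to 3.27 ± 1.68 TPM in TOTAL (log2 -3.42 ± 0.24, adjusted p = 2.39e-11) and from 55.0 ± 7.93 to 4.18 ± 3.08 in RSS1 (log2 -3.58 ± 0.30, adjusted p = 2.88e-10), and it rose to 18.7 ± 4.29 and 41.7 ± 6.41 in recovery. The kinesin OS03G0301800 gave 27.9, 33.0 and 33.8 TPM in TOTAL of control II and 1.10, 1.92 and 3.88 under submergence, and 10.6, 13.4 and 9.09 against 0.480, 1.20 and 1.77 in 35S. It was among the members lower in all 3 sets, with log2 changes of -3.39 ± 0.26, -2.52 ± 0.24 and -2.77 ± 0.31 in TOTAL, 35S and RSS1 (adjusted p = 9.97e-11, 2.81e-08 and 5.29e-08). The kinesin-4 OS09G0114500 was lower in all 3 sets as well, at 8.23 ± 1.86 against 41.8 ± 2.94 TPM in TOTAL, 10.4 ± 0.847 against 43.2 ± 10.2 in 35S and 17.5 ± 3.76 against 47.3 ± 2.30 in RSS1.

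**Figure D3:**
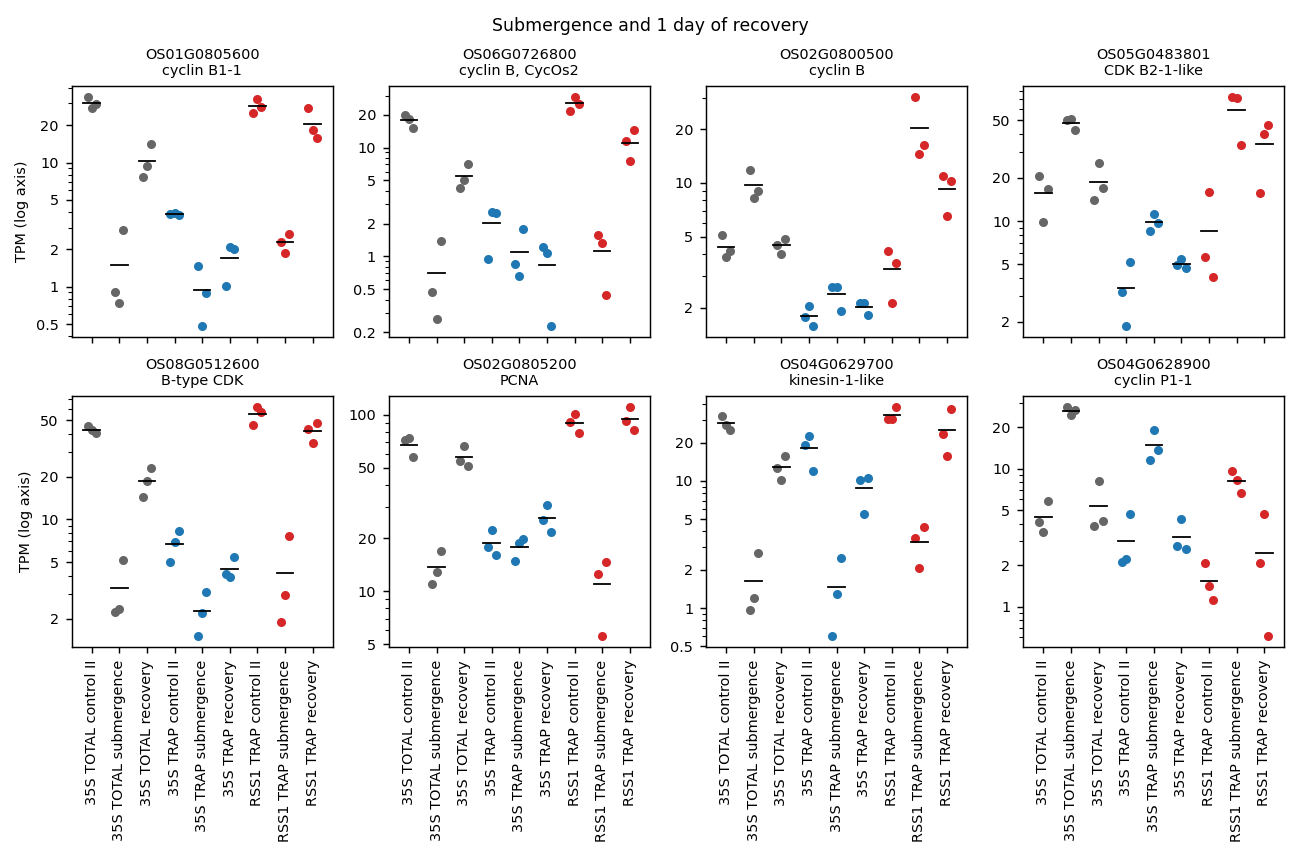
TPM (log scale) of selected members in control II, submergence and recovery, in TOTAL, 35S TRAP and RSS1 TRAP RNA, with 1 point per library and a bar at the mean. OS01G0805600 falls to between 0.739 and 2.88 TPM in TOTAL RNA under submergence, while the P-type cyclin OS04G0628900 lies between 24.4 and 28.1 there, against 3.46 to 5.83 in control II.

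The members that were higher made up 7 of 98 in TOTAL, 17 of 100 in RSS1 and 2 of 94 in 35S, below the background in TOTAL and 35S and near it in RSS1. The P-type cyclin OS04G0628900, named cyclin P1-1, gave 4.11, 3.46 and 5.83 TPM in TOTAL of control II and 28.1, 24.4 and 26.8 under submergence, and it was higher in all 3 sets (log2 2.35 ± 0.49, 2.01 ± 0.41 and 1.87 ± 0.59 in TOTAL, 35S and RSS1, adjusted p = 0.000251, 0.000443 and 0.0108). OS05G0483801, described as similar to a B-type CDK, rose in all 3 sets as well, from 15.7 ± 5.48 to 48.1 ± 4.43 TPM in TOTAL, from 3.41 ± 1.66 to 9.81 ± 1.34 in 35S and from 8.52 ± 6.44 to 59.5 ± 22.2 in RSS1. The 35S call on OS05G0483801 was lost with control I as the control. OS05G0483801 and OS08G0512600, both described as B-type CDKs, thus moved in opposite directions.

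The members were also grouped, after their values were seen and with no test, by the line in which their control I mean was highest. Of the 44 tested whose mean was highest in CMZ, SCR or CASP, 16 were higher, 12 lower and 16 not called under submergence in RSS1. Of the 39 whose mean was highest in QHB, 0 were higher and 31 lower. Of the 13 highest in LSI1, 1 was higher and 3 lower, and all 3 highest in RSS1 were lower. All genes were not grouped in this way, so whether the split is particular to the members is not known. OS07G0231500 gave 11.0, 3.18 and 7.86 TPM in RSS1 control II and 50.2, 83.7 and 40.2 under submergence (log2 2.88 ± 0.51, adjusted p = 4.01e-05), and OS02G0801200 rose from 5.07 ± 1.53 to 26.9 ± 9.80 (log2 2.18 ± 0.30, adjusted p = 1.37e-06). The kinesin OS04G0442800 stood at 6.91 ± 1.09 and 19.8 ± 11.6 TPM (log2 1.23 ± 0.37, adjusted p = 0.00875). The D-type cyclin OS03G0203800 stood at 27.6 ± 7.46 and 58.7 ± 21.8 TPM (log2 1.02 ± 0.37, adjusted p = 0.0255), and its groups overlapped. The calls on both OS04G0442800 and OS03G0203800 were lost without submergence replicate 2, in the fit of only the 2 groups and with control I as the control, and that on OS03G0203800 also without control II replicate 2 or submergence replicate 3. In 35S TRAP RNA OS07G0231500 was at 5.50 ± 0.404 and 4.22 ± 1.56 TPM and OS02G0801200 at 2.80 ± 0.344 and 3.46 ± 0.823, and neither was called. RPL18 moved with submergence: it averaged 15983 TPM in RSS1 control II and 2740 under submergence, 19287 and 3417 in 35S, and 970 and 500 in TOTAL. The RSS1 gene in the RSS1 line averaged 493 TPM in control II, 96.3 under submergence and 662 after recovery. Photosynthesis transcripts summed to 63.2 to 180 TPM in RSS1 control II and 384 to 1015 under submergence, to 76.9 to 126 and 342 to 490 in TOTAL, and to 153 to 201 and 471 to 978 in 35S. Their part in these changes was not tested.

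The difference in response between RSS1 and 35S was itself tested. Of 98 members, 36 responded differently to submergence, 27 with a more negative (7.7%) and 9 with a more positive (6.19%) change in RSS1. The B-type cyclin OS06G0726800 showed the largest negative difference, -3.17 ± 0.49 log2 (adjusted p = 0.00191). It fell from 25.4 ± 3.64 to 1.11 ± 0.589 TPM in RSS1, whereas in 35S it was at 2.02 ± 0.930 TPM already in control II and at 1.10 ± 0.610 under submergence. PCNA (OS02G0805200) differed by -2.96 ± 0.41 (adjusted p = 0.00106), from 90.1 ± 10.9 to 10.9 ± 4.74 TPM in RSS1 and from 18.7 ± 3.24 to 17.8 ± 2.54 in 35S. In the other direction the cyclin-related 2 domain gene OS05G0325200 differed by 3.88 ± 0.58 (adjusted p = 0.0018), rising from 2.92 ± 2.05 to 25.5 ± 10.5 TPM in RSS1 and falling from 4.89 ± 0.450 to 1.88 ± 1.08 in 35S. The kinesin OS03G0301800 gave a difference of -0.25 ± 0.53 (adjusted p = 0.8), which does not show that both lines responded alike. The count of 36 fell to 19 with a pseudocount of 0.1 TPM, which spreads low values more.

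Recovery of 1 day raised many members again. Against submergence, TOTAL had 37 higher (12.7%) and 7 lower (13.6%) of 98, RSS1 46 (16%) and 6 (13.5%) of 100, and 35S 14 (8.37%) and 2 (7.92%) of 94. PCNA stood at 57.7 ± 8.11 TPM in TOTAL recovery, against 13.6 ± 3.04 under submergence (log2 2.01 ± 0.17, adjusted p = 1.47e-09), and at 95.0 ± 14.3 against 10.9 ± 4.74 in RSS1 (log2 3.09 ± 0.27, adjusted p = 1.5e-09). OS01G0805600 rose by a log2 of 2.24 ± 0.26 in TOTAL (adjusted p = 1.52e-07) and 2.69 ± 0.23 in RSS1 (adjusted p = 1.66e-09). Among the genes that had risen, the P-type cyclin OS04G0628900 fell to 5.39 ± 2.42 TPM in TOTAL (log2 -2.16 ± 0.49, adjusted p = 0.000844) and to 3.22 ± 0.949 in 35S (log2 -1.90 ± 0.41, adjusted p = 0.000991). OS05G0325200, which had risen in RSS1, stood there at 21.0 ± 2.60 TPM (log2 -0.19 ± 0.48, adjusted p = 0.793), while the level in control II was 2.92 ± 2.05. From submergence to recovery RPL18 went from 2740 to 12363 TPM in RSS1, from 3417 to 47363 in 35S and from 500 to 836 in TOTAL. The 35S recovery libraries gave 112700, 14640 and 14750 TPM. Photosynthesis sums in recovery were 129 to 171 TPM in RSS1, 316 to 430 in 35S and 142 to 179 in TOTAL, all below the submergence values given above. Their part in these changes was not tested.

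Water deficit lowered fewer members. Against control I, TOTAL had 20 lower (10.9%) and 1 higher (10.6%) of 98, QHB 15 (7.38%) and 2 (5.87%) of 99, SCR 10 (3.94%) and 0 (2.92%) of 101, CMZ 9 (4.43%) and 0 (3.45%) of 99, RSS1 7 (7.68%) and 2 (6.83%) of 100, CASP 5 (2.1%) and 0 (2.16%) of 100, 35S 4 (8.38%) and 1 (6.03%) of 94, and LSI1 3 (7.49%) and 6 (7.29%) of 99. The share of members that were lower was above the background in TOTAL, QHB, SCR, CMZ and CASP, and at or below it in RSS1, 35S and LSI1. The median log2 change of the members was -0.34 in TOTAL, -0.55 in QHB and -0.16 in RSS1, against 0.08, -0.08 and 0.01 over all genes. Of the 63 other replication and mitosis genes, 15 of 61 tested were lower in TOTAL, 12 of 62 in QHB, 5 of 62 in RSS1 and 1 of 60 in 35S. RPL18 moved with deficit too: it averaged 52523 TPM in control I and 1655 under deficit in 35S TRAP, 17100 and 5615 in RSS1, 47793 and 5794 in LSI1, 4209 and 2742 in QHB, 1350 and 1015 in CMZ, 1041 and 579 in CASP and 920 and 502 in TOTAL, but 1101 and 2837 in SCR. The control I libraries of 35S and LSI1 spread widely in RPL18, as given above. Photosynthesis transcripts summed to as much as 1858 TPM in 1 CASP and 2334 in 1 SCR deficit library. Their part in the changes was not tested.

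Several of these counts rested on single libraries. Leaving out 1 library at a time, the CASP count of 5 ran from 0 (without control I replicate 3) to 10 (without deficit replicate 3), the SCR count of 10 from 1 (without control I replicate 2) to 12, and the CMZ count of 9 from 3 (without control I replicate 2 or 3, or deficit replicate 2) to 10. The SCR count was 3 without control I replicate 1 or deficit replicate 2, 5 without control I replicate 3 and 2 without deficit replicate 1, and the CMZ count was 4 without control I replicate 1. Leaving out deficit replicate 1 or 2 gave 2 in CASP, and leaving out replicate 2 or 4 of control I gave 1. The QHB count of 17 fell to 9 without deficit replicate 3, and the 35S count of 5 to 2 without deficit replicate 2. In the fits of only the 2 groups compared, the counts were 10 in QHB, 5 in CMZ, 3 in SCR and 0 in CASP.

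Some members were lower in several of the 8 sets. Of the 101, 31 were lower in at least 1 set (30.7%, against 21.4% of all genes) and 14 in at least 3 (13.9%, against 6.86%). The kinesin heavy chain OS01G0513900 was lower in 6 sets: it stood at 1.26 ± 0.408 TPM against 7.33 ± 1.47 in TOTAL (log2 -1.89 ± 0.25, adjusted p = 1.92e-06), 5.75 ± 1.99 against 16.2 ± 2.42 in RSS1 (log2 -1.38 ± 0.30, adjusted p = 0.00135) and 5.96 ± 1.47 against 16.7 ± 2.73 in QHB (log2 -1.36 ± 0.28, adjusted p = 0.00536). The deficit and control I libraries of OS01G0513900 did not overlap in these 3 sets. In CMZ its call was lost without control I replicate 2 or deficit replicate 2 or 3, in SCR without control I replicate 2 or deficit replicate 1 or 2, and in CASP without any 1 library except deficit replicate 3. The cyclin-related 2 domain gene OS10G0563900 showed the largest fall in TOTAL and RSS1, to 7.77 ± 3.70 from 33.1 ± 2.95 TPM (log2 -2.07 ± 0.34, adjusted p = 3.66e-05) and to 8.21 ± 3.16 from 48.4 ± 14.7 (log2 -2.44 ± 0.27, adjusted p = 1.05e-07). B-type cyclins were represented by OS05G0493500 in TOTAL, at 3.95 ± 0.835 against 18.4 ± 3.22 TPM (log2 -1.97 ± 0.28, adjusted p = 3.94e-06), and by OS06G0726800 in RSS1 and QHB, at 7.94 ± 0.602 against 25.0 ± 3.57 and 10.3 ± 1.17 against 28.6 ± 4.70.

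**Figure D4:**
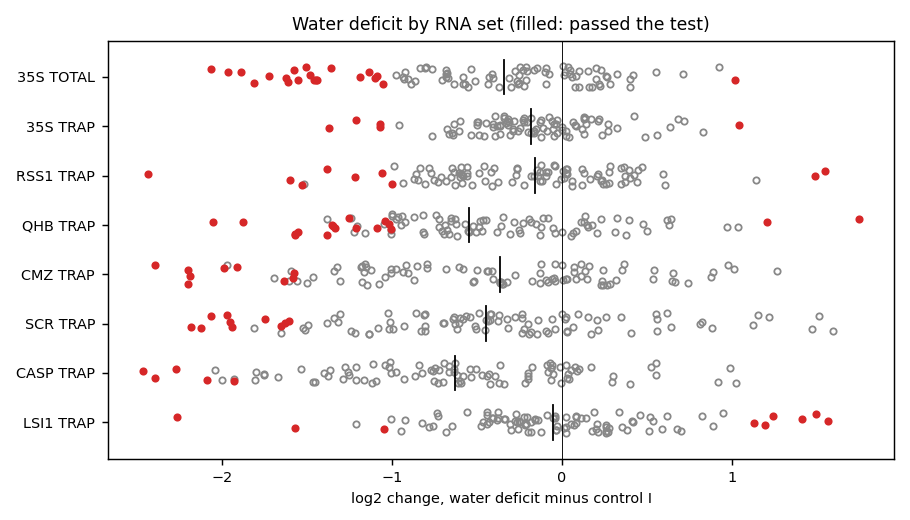
Log2 change of each tested member under water deficit against control I in the 8 RNA sets, on the log2(TPM + 1) scale, with 1 point per gene (filled and red where called) and a black bar at the median. The median lies between -0.63 in CASP and -0.05 in LSI1, and called members lie mostly below 0 except in LSI1.

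LSI1 had 6 higher and 3 lower of 99 members under deficit, both below the share of all genes. The kinesin OS01G0744000 stood at 13.2 ± 3.45 TPM against 4.12 ± 1.53 (log2 1.49 ± 0.25, adjusted p = 0.000401), and the P-type cyclins OS04G0628900 and OS05G0398000 stood at 1.52 ± 0.528 against 11.1 ± 2.44 (log2 -2.26 ± 0.37, adjusted p = 0.000304) and 4.69 ± 0.543 against 16.4 ± 5.58 (log2 -1.57 ± 0.34, adjusted p = 0.00314). The difference between lines in the deficit response was tested against 35S, and limma called 0 of 101 members in RSS1 (0.899%), QHB (0.871%), CMZ (0.57%), SCR (0.43%) and CASP (0.419%), with 3, 8, 16, 17 and 14 members at an unadjusted p under 0.05. In LSI1 it called 1 (2.21%), the kinesin OS05G0117798. Its log2 difference in response was 2.16, and it had been lower in 35S, at 6.27 ± 0.371 against 15.9 ± 1.10 TPM (log2 -1.21 ± 0.21, adjusted p = 0.000116). So the unequal counts of the lines do not show that the lines responded differently. The LSI1 count was 2 without LSI1 control I replicate 3, and the CASP count was 1 without CASP control I replicate 2 and 2 without CASP deficit replicate 3, and the CMZ count 1 without CMZ deficit replicate 1.

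After 1 day of recovery from deficit, TOTAL had 23 members higher (11.2%) and 0 lower (7.72%) than under deficit, RSS1 5 (6.24%) and 0 (5.27%), and 35S 3 (7.79%) and 1 (6.16%). OS01G0513900 returned to 6.91 ± 1.81 TPM in TOTAL (log2 1.80 ± 0.25, adjusted p = 4.84e-06) and the B-type cyclin OS06G0726800 rose there from 3.18 ± 1.24 to 12.7 ± 3.98 (log2 1.72 ± 0.28, adjusted p = 3.67e-05). In RSS1 OS10G0563900 rose from 8.21 ± 3.16 to 37.0 ± 4.46 TPM (log2 2.10 ± 0.27, adjusted p = 1.73e-06). The RSS1 count of 5 was 3 without deficit replicate 3, and the 35S count of 4 was 2 without deficit replicate 2 and 8 with a pseudocount of 0.1 TPM. From deficit to recovery RPL18 went from 1655 to 79863 TPM in 35S TRAP, from 5615 to 22247 in RSS1 and from 502 to 1005 in TOTAL, and the RSS1 gene in its own line from 331 to 922. The recovery libraries gave 14790, 115700 and 109100 TPM of RPL18 in 35S TRAP and 32460, 16480 and 17800 in RSS1. The part of RPL18 and of the RSS1 gene in these counts was not tested.

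Waterlogging gave almost no calls. The count was 0 in TOTAL (0.838%), 35S (0.171%), RSS1 (0.507%), CMZ (0.0507%), SCR (0.00364%) and CASP (0.0259%), where limma had 19, 5, 2, 2, 2 and 0 members at an unadjusted p under 0.05. In LSI1 it was 1 (1.55%), the cyclin OS07G0620800, and it was 0 without any 1 of the 6 LSI1 libraries. Photosynthesis transcripts summed to 5689 TPM in waterlogging replicate 3 of SCR, 3933 in replicate 3 of CMZ and 1982 in replicate 1 of RSS1. The other waterlogging replicates of these lines lay between 76.8 and 176 TPM. The part of these libraries in the counts was not tested. Recovery from waterlogging gave 0 calls in TOTAL (0.8%), 35S (0.038%) and RSS1 (0.504%), with 15, 8 and 5 members at an unadjusted p under 0.05 by limma, and 1 in TOTAL without waterlogging replicate 1. Control II against control I gave 0 in TOTAL (0%), 35S (0.019%) and RSS1 (0.00365%), with 27, 4 and 2 at an unadjusted p under 0.05 by limma.

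Growth environment was compared with control I in the sets that hold every environment. On plates TOTAL had 13 higher (14.5%) and 2 lower (7.67%) of 98, 35S 4 (11.5%) and 2 (8.97%) of 94, and RSS1 1 (6.24%) and 1 (5.63%) of 100. The field gave 1 and 0 in TOTAL (7%), 3 (2.79%) and 1 (4.81%) in 35S, and 3 (5.01%) and 7 (5.49%) in RSS1. These shares of members lie near or below the background. Age and medium differ together with the environment and cannot be told apart. Photosynthesis transcripts summed to 721 to 1631 TPM on plates and 77.2 to 199 in control I in TOTAL, and to 835 to 1159 and 81.3 to 142 in RSS1. RPL18 averaged 4080 TPM in the field and 52523 in control I in 35S, where the control I libraries spread widely, and 5106 and 17100 in RSS1. Their part in these counts was not tested. The RSS1 field count of 10 was 4 without control I replicate 1 or 3 and 6 without field replicate 1 or 3, the 35S field count was 7 without field replicate 2, the TOTAL field count was 0 without field replicate 2 and 2 without field replicate 3, and the RSS1 plate count of 2 was 1 without control I or plate replicate 2.

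The D-type cyclin OS07G0556000 was lower on plates in TOTAL and RSS1, at 8.48 ± 1.92 against 23.0 ± 4.95 TPM (log2 -1.34 ± 0.24, adjusted p = 0.000111) and 10.4 ± 2.91 against 38.9 ± 12.1 (log2 -1.79 ± 0.31, adjusted p = 0.000218). The 3 neighbouring B-type cyclins were higher on plates in TOTAL, for example OS02G0800500 at 11.8 ± 0.650 against 3.82 ± 0.535 TPM (log2 1.41 ± 0.17, adjusted p = 7.51e-07). The kinesin OS06G0554700 stood at 17.6 ± 1.65 against 4.87 ± 2.06 TPM (log2 1.73 ± 0.27, adjusted p = 2.37e-05). In the field OS05G0325200 was the gene furthest above control I in RSS1, at 40.5 ± 24.2 against 3.82 ± 1.05 TPM (log2 2.91 ± 0.48, adjusted p = 0.000238).

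TRAP and TOTAL RNA of the same 35S line were compared within each environment, as unpaired groups. Members were more often lower than higher in TRAP, with 29 lower (9.3%) and 1 higher (12.9%) of 99 in control I, 44 (12.1%) and 1 (7.2%) in control II, 52 (14.9%) and 1 (13.9%) on plates, 43 (12.6%) and 1 (9.88%) in waterlogging and 27 (10.3%) and 1 (6.49%) in the field. The counts were 28 (9.23%) and 1 (7.05%) in deficit recovery, 26 (8.91%) and 1 (8.01%) in waterlogging recovery, 24 (5.92%) and 1 (4.68%) in submergence recovery, 14 (6.93%) and 0 (4.13%) in submergence and 8 (4.45%) and 0 (2.4%) in water deficit. The median log2 difference of the members was -0.66 in control I and -1.11 on plates, against 0.24 and 0.00106 over all genes. In deficit the count of 8 was 4 without TRAP deficit replicate 2, 5 without TOTAL deficit replicate 1 and 13 without TOTAL deficit replicate 2. Of the 63 other replication and mitosis genes, 18 of 62 tested were lower and 1 higher in control I, 0 lower and 1 higher in submergence, 2 lower in water deficit, and 10 to 25 lower in the other 7 environments. RPL18 in 35S TRAP averaged 1655 TPM in water deficit and 3417 in submergence, where the fewest members were called, 4080 in the field, and 17303 to 122167 in the other 7 environments, and the plate-grown TRAP libraries held the photosynthesis transcripts given above. Their part in these counts was not tested.

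**Figure D5:**
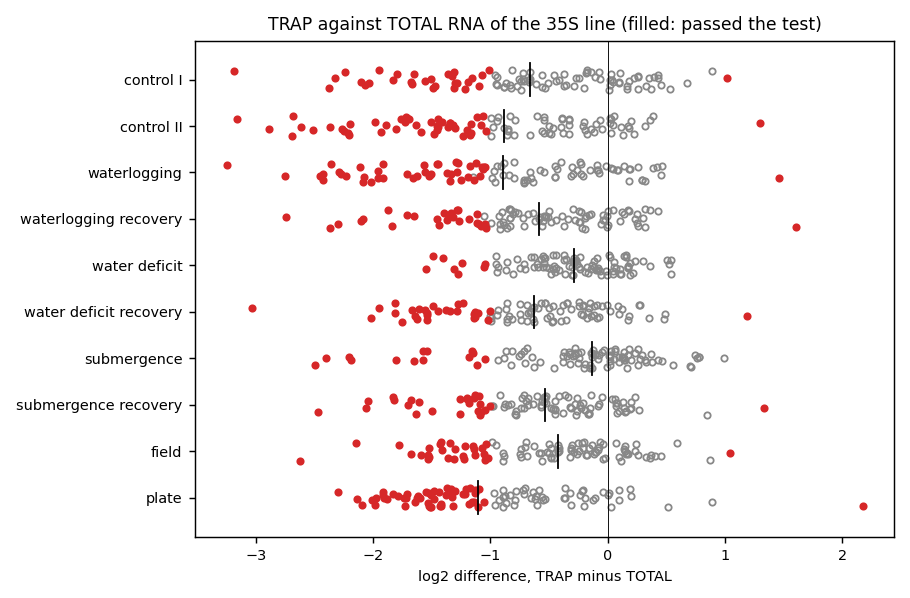
Log2 difference of each tested member between TRAP and TOTAL RNA of the 35S line in the 10 environments, on the log2(TPM + 1) scale, with 1 point per gene (filled and red where called) and a black bar at the median. The median is below 0 in every environment, from -1.11 on plates to -0.14 in submergence.

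Of the 99 members tested, 66 were lower in TRAP in at least 1 of the 10 environments (66.7%, against 24.6% of all genes) and 15 in at least 8 (15.2%, against 3.93%). The cyclin OS09G0466100 was lower in all 10, at 1.21 ± 0.424 against 10.2 ± 3.40 TPM in control I (log2 -2.32 ± 0.26, adjusted p = 1.97e-09). OS01G0805600, OS10G0563900 and the cyclin OS04G0563700 were lower in 9. In control II OS01G0805600 stood at 3.84 ± 0.0845 TPM in TRAP and 30.4 ± 3.08 in TOTAL (log2 -2.69 ± 0.32, adjusted p = 3.15e-09), and OS10G0563900 at 2.91 ± 0.614 and 34.5 ± 9.73 (log2 -3.16 ± 0.42, adjusted p = 7.66e-08). The member higher in TRAP, in 8 of the environments, was the ribosome recycling factor OS07G0570700, at 14.3 ± 5.53 against 6.16 ± 0.346 TPM in control I (log2 1.02 ± 0.26, adjusted p = 0.00185), a call lost without TOTAL replicate 2 or TRAP replicate 2 or 3. For members lower in 35S TRAP than in TOTAL RNA, the height of a line over 35S TRAP is larger than its height over TOTAL RNA. OS01G0805600, for example, stood at 47.4 ± 4.65 TPM in QHB, 24.0 ± 3.95 in TOTAL and 5.07 ± 1.90 in 35S TRAP of control I.

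Accessibility of the regions upstream of the members was measured by ATAC-seq, which counts transposase cuts in nuclei, here in nuclei of a line with a nuclear tag under the 35S promoter. Libraries of the CMZ and QHB nuclear lines were not analysed here. The 27 libraries of this line held 1340979 to 17113727 counts over upstream regions, so their precision differs, and 98 members could be tested. Submergence against control II gave 8 regions lower (3.76%) and 0 higher (2.94%) by edgeR at an adjusted p under 0.05. The largest fall was upstream of the cyclin-related 2 domain gene OS04G0552300, from 53.5 ± 9.59 to 20.8 ± 1.22 CPM (log2 -1.37, adjusted p = 3.81e-05). CPM are counts scaled to a library's total over the regions tested, after adjustment by the TMM factors of edgeR. The kinesin OS01G0744000 fell from 34.3 ± 2.02 to 17.1 ± 2.66 CPM (adjusted p = 0.000579) and OS01G0805600 from 25.7 ± 6.26 to 16.4 ± 1.92 (log2 -0.65, adjusted p = 0.0324). Of the 8 genes, the RNA of 5 was lower under submergence in all 3 sets, these 3 among them. The RNA of OS02G0775400 was lower in TOTAL and 35S, that of OS03G0617500 in 35S and that of OS04G0544200 in TOTAL. Of all members tested for RNA, 17% were lower in all 3 sets. The overlap was not computed over all regions called lower, so there is no background for it. The count of 8 was 4 without control II replicate 2 or 3 or submergence replicate 1, and 5 without submergence replicate 2.

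The other stresses gave 0 calls by edgeR: deficit (0.797%), waterlogging (0%), deficit recovery (0.593%), waterlogging recovery (0%), submergence recovery (1.74%) and control II against control I (0.0283%), with 6, 6, 14, 1, 9 and 22 regions at an unadjusted p under 0.05. DESeq2 called 1 for deficit, 1 for deficit recovery and 4 for control II. The deficit recovery count was 2 without deficit replicate 3 or recovery replicate 2. Field against control I gave 28 higher (24.3%) and 22 lower (27.3%), near the background, and 28 in all without control I replicate 2. The regions that were higher in the field had a median level of 5.33 log2 CPM, those lower 3.57 and those not called 4.20. For example, the kinesin OS04G0538800 stood at 86.8 ± 8.56 CPM in the field and 34.2 ± 4.83 in control I (log2 1.34, adjusted p = 2.35e-05), and the kinesin OS02G0644400 at 3.31 ± 1.13 and 11.9 ± 0.403 (log2 -1.79, adjusted p = 0.000117). The field libraries held 4349023, 8277861 and 17113727 counts and those of control I 1927325, 5319257 and 4386049. The part of level and of depth in the direction was not tested.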

How the data were processed

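The authors deposited TPM values of 28248 genes in 187 RNA libraries and counts of ATAC reads per upstream region in 51 libraries. Per the file headers, the TPM were computed by the authors from reads that had been quantile-normalized with limma voom, over the genes that passed a filter on CPM. Columns sum to 999953 to 1000050 TPM and hold no depth, so the depth and counting error behind each RNA value are unknown. The submitters' processing notes name Bowtie2, TopHat2, HOMER and limma with the IRGSP-1.0 genome. The sources used here give no versions, strandedness, handling of shared reads or shift of ATAC reads. Whether field and plate replicates were separate plantings is not stated, so their p-values measure only the spread between these samples.

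From the deposited TPM, limma 3.58.1 in R 4.3.3 (eBayes with trend) was run on log2(TPM + 1), over genes that reached 1 TPM in 3 or more of the fitted libraries, with Benjamini-Hochberg adjustment over all genes tested. Between 94 and 101 members passed this filter in a fit. Members that passed only through 1 high group had to differ, so counts over them are descriptions. Stresses were tested in fits over every environment of 1 line and kind of RNA, lines in fits over every line of 1 environment, and TRAP against TOTAL RNA in a fit over both. Interactions were called on the adjusted p alone. ATAC counts, as the authors deposited them, were tested with edgeR 4.0.16 (TMM, filterByExpr, quasi-likelihood F test), with DESeq2 1.42.0 as an alternative. Both scripts were tested on simulated data. Recovery, field and plate are described against control I or the stress only for TOTAL, 35S and RSS1, which hold every environment. Libraries of 1 group correlated at an r of 0.732 to 0.9876 on log2(TPM + 1), and no 2 libraries held identical values.

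The members, gene lists, roles and tests were chosen with earlier results of these data known. Named members are the 3 with the highest mean TPM in each role (5 kinesins) and, in each comparison, up to 8 called members each way with the largest log2 difference and a higher group mean of at least 5 TPM. OS02G0101800, OS02G0644400, OS04G0442800 and OS11G0242500 are outside this rule and were picked after their values were seen. Same-numbered TRAP and TOTAL libraries deviated together in all 10 environments (every correlation of deviations above 0.1), as did same-numbered libraries in some other comparisons. Blocked fits were run throughout, with each replicate number given the same effect in every group of a fit. Such a block does not model deviations that TRAP and TOTAL share only within an environment. The p-values of TRAP against TOTAL RNA thus leave that pairing out. The alternatives were another pseudocount, no filter, rescaling to 1 median, a block, only the groups compared, control I for submergence, and each library left out.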

Additional observations from a re-analysis of the deposited data

Results flagged for a closer look

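The response to submergence differed between RSS1 and 35S TRAP RNA for 36 of 98 members by the interaction term, and the named ones were flagged because of it. The log2 response in RSS1 minus that in 35S was negative for the B-type cyclin OS06G0726800 (-3.17), PCNA (OS02G0805200, -2.96), the kinesin OS11G0552600 (-2.90), the cyclin-related 2 domain gene OS10G0563900 (-2.59) and the kinesins OS08G0558400 (-2.58), OS07G0105700 (-2.56), OS01G0513900 (-2.47) and OS03G0114000 (-2.33). It was positive for the B-type cyclins OS02G0801300 (1.77), OS05G0501350 (1.77), OS02G0801200 (1.96) and OS02G0800500 (2.01), the CDK-like gene OS12G0203000 (2.18) and the cyclin-related 2 domain genes OS05G0326400 (2.27), OS07G0231500 (3.25) and OS05G0325200 (3.88). With a pseudocount of 0.1 TPM the differences of OS01G0513900, OS05G0501350 and OS08G0558400 were no longer called. OS05G0501350 also lost its call without any 1 RSS1 or 35S control II library and without 35S submergence replicate 2 or 3, and OS08G0558400 without RSS1 control II replicate 2 or 3, 35S control II replicate 1 or 3, or 35S submergence replicate 1 or 2.

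The response to water deficit differed between LSI1 and 35S for 1 member, the kinesin OS05G0117798, whose log2 response was higher in LSI1 by 2.16.

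In plate-grown CMZ, the only group of 4 libraries, 1 library lay far from the other 3 for 3 of the 101 members. The far values were 30.5 TPM for the kinesin OS02G0101800, 3.36 for the cyclin-related 2 domain gene OS05G0326400 and 0.830 for the kinesin OS09G0528000. Chance marks about 1 in 20 groups in this way.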

How the results depend on the processing

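Of 940 counts of called members or regions under alternatives, for 82 results, 842 lay within 1.5 times the count reported and 98 moved further, in 32 results. Of 4719 alternative values of the 439 named differences, 4289 kept their call, 430 lost it and 0 changed sign. The named differences were chosen as the largest called ones in these same libraries, so a change of sign was unlikely from the start. With a pseudocount of 0.1 TPM the counts were 0 for waterlogging in LSI1, 8 for deficit recovery in 35S, 25 for submergence recovery in 35S, 7 and 5 for the field in 35S and RSS1, 10 and 4 for plates in 35S and RSS1, 14 for TRAP against TOTAL in deficit and 19 for the RSS1 submergence difference. Rescaling to 1 median gave 3 for deficit and 2 for deficit recovery in 35S, 0 for the field in TOTAL and 11 for RSS1 in the field. Without the filter waterlogging in LSI1 gave 0. Fits of only the groups compared gave 10, 5, 3 and 0 for deficit in QHB, CMZ, SCR and CASP, 0, 1 and 2 for the field in TOTAL, 35S and RSS1, and 4 for plates in RSS1. DESeq2 gave 1 ATAC region for deficit, 1 for deficit recovery and 4 for control II against control I. The causes were not tested.

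With the replicate block, counts moved for deficit in CASP (3), waterlogging in LSI1 (0), NRAMP5 in the field (1), the LSI1 deficit difference (3) and ATAC control II against control I (8), and no other count moved by over 1.5 times. The pairing check was run for all 5, and every correlation of same-numbered libraries was above 0.1 only for NRAMP5 in the field. For waterlogging in LSI1 the correlations ran from 0.0978 to 0.204, just short of that limit. For ATAC control II they ran from -0.0594 to 0.00523.

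Leaving out 1 library gave 2 to 6 calls for deficit in 35S, 9 to 18 in QHB, 3 to 10 in CMZ, 1 to 12 in SCR and 0 to 10 in CASP, 0 for waterlogging in LSI1, 2 to 5 and 3 to 6 for deficit recovery in 35S and RSS1, 0 to 1 for waterlogging recovery in TOTAL, 0 to 2, 3 to 7 and 4 to 11 for the field in TOTAL, 35S and RSS1 and 1 to 3 for plates in RSS1. Against 35S it gave 7 to 12 for LSI1 in control I, and in the field 10 to 23 for EXP5B, 14 to 20 for LSI1, 19 to 31 for QHB, 3 to 16 for RSS1 and 12 to 21 for SHR1. TRAP against TOTAL in deficit gave 4 to 13, the deficit difference 0 to 1 for CMZ, 0 to 2 for CASP and 1 to 2 for LSI1, and ATAC 4 to 6 for submergence, 0 to 2 for deficit recovery and 28 to 48 for the field.

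TPM hold no depth, so no limit on detection can be given for RNA, and shares of reads between similar cyclins cannot be resolved.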
